A study of Macaca mulatta with 2 samples.

Results

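The cells described here were T cells that carried CXCR5 transcript and lacked CXCL13, from a bead preparation of circulating CD4+CD8+ double positive (DP) T cells of a rhesus monkey. By the antibody tags described at the end, 152 of the 219 cells (69.4%) were above the background for both CD4 and CD8. The cells were chosen by their own counts of unique molecular identifiers (UMIs, 1 per captured transcript molecule): at least 1 UMI of CXCR5, at least 2 UMIs summed over CD3D, CD3E and CD3G, and no UMI of CXCL13, IL21, FOXP3, MS4A1 or CD79B. This left 219 of the 7601 cells that passed the quality limits (2.88%, 95% exact binomial interval 2.52 to 3.28%), out of 7923 barcodes. The study asked which T cell types make up the circulating DP population. DP cells were taken from fresh blood mononuclear cells of 1 untreated animal aged 6 years, first with releasable CD4 beads and then with CD8 beads, and were run on the 10x 5′ platform with antibody tags for CD4 and CD8. The 5′ expression library and the tag library shared all 7923 barcodes. With 1 animal there was no replicate and no test between groups of cells, and every interval below covers counting error only.

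CXCR5 is the receptor for CXCL13, the chemokine that marks B cell follicles, and it draws follicular helper T (Tfh) cells towards B cells. In the follicle these cells give help through ICOS, CD40 ligand and IL-21, are held in check through PD-1, and depend on the transcription factor BCL6. CXCR5+ T cells in blood are regarded as a circulating, resting counterpart, and CCR7 on such cells allows entry into lymph nodes from blood.

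CXCR5 transcript was sparse. The 219 cells held 256 CXCR5 UMIs, which gave 229.6 CPM (summed UMIs of the gene scaled to 1000000 gene UMIs). A single UMI was counted in 189 cells, 2 in 25 cells, 3 in 4 cells and 5 in 1 cell. The CXCR5 gene lies on chromosome 14 from 111946173 to 111958553 on the plus strand of Mmul_10. Of all 371 kept cells with a CXCR5 UMI, 48 had no CD3 UMI and 15 had 1. Among the 308 with at least 2 CD3 UMIs, 66 held MS4A1 (CD20) or CD79B (a chain of the B cell receptor complex) and 24 held CXCL13, IL21 or FOXP3, so that 89 were removed in all. The CD3 limit itself hardly acted on cells free of the other genes. The lowest CD3 sum among the 219 cells was 4 UMIs and the median was 12 (10 in the comparison cells), while 1 cell with 1 CD3 UMI and 1 cell with none fell just outside the rule.

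B cell transcripts went with CXCR5. MS4A1 or CD79B was detected in 21.4% (17.0 to 26.4%) of the CXCR5+ cells with at least 2 CD3 UMIs and in 1.59% of CXCR5-negative cells with the same CD3 minimum, at median depths of 5034 and 3618 UMIs. After the exclusion, 30 of the 219 cells (13.7%, 9.44 to 19.0%) still held a UMI of at least 1 of 9 further B cell genes, against 371 of 6708 (5.53%) CXCR5-negative cells passed through the same exclusions, at median depths of 4642 and 3601 UMIs. Most of that signal was CD79A, found in 25 of the 219 cells (11.4% against 4.29%). BANK1, PAX5, EBF1, FCRLA and VPREB3 had a UMI in none of the 219 cells. With 0 taken as 3 cells, this allows a share of cells with a UMI of up to 1.37%, or 1.67% by the exact interval. It sets no limit on cells that express them. Of the 6708 CXCR5-negative cells, none held EBF1 or VPREB3 either, 1 each held PAX5 and FCRLA, and 7 held BANK1. These counts of 0 therefore do not tell the groups apart. Summed over the 17 listed B cell genes, 9 of which were at 0, the level was 399 CPM against 680.3 CPM in the comparison cells, from which cells with MS4A1 or CD79B had not been removed, and 509 CPM in the comparison cells under the same exclusions. CD74, which activated T cells also express, was the most abundant in each, and without it the sums were 52.0, 57.9 and 28.3 CPM. Listed monocyte genes were at 0 for 7 of 8, and listed plasmacytoid dendritic cell genes were at 0 for 3 of the 4 found. Each list summed to 0.897 CPM, on 1 UMI, against 5.79 and 7.55 CPM in the comparison cells. None of these genes had enough counts to compare in either group. The share of droplets holding a B cell and a T cell was not measured directly. A doublet caller (Scrublet) found no doublet by its own threshold, and that threshold is taken as not having worked. Its scores were used only to rank cells, and cells ranked high are not known to be doublets. Of the 219 cells, 19 (8.68%) were among the 378 cells with the highest scores, against 4.93% of the comparison cells. The log2 ratio of CCR7 to the comparison cells was 1.27 over all cells, 1.48 without cells holding the further B cell genes and 1.33 without the highest scores, whereas that of GZMB went from -2.08 to -3.96 without the highest scores. The part of doublets in these ratios was not tested.

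The comparison cells were the 7122 kept cells with a CD3 UMI and no CXCR5 UMI. The 219 cells were deeper than these. They had a median of 4642 UMIs (787 to 16809), 1377 genes and 1114973 UMIs in all. The comparison cells had a median of 3604.5 UMIs, 1279 genes and 28476321 UMIs in all. Median mitochondrial shares were 3.67% and 4.01%. Levels were therefore compared as summed CPM, and shares of cells after each cell was thinned to 2000 UMIs, which left out 7 and 423 shallower cells. In such sums, fewer cells with a gene and less RNA per cell cannot be told apart.

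To see where CXCR5 lay among the isolated T cells, its share was taken in sets of cells with at least 2 CD3 UMIs that were defined by other genes. Free RNA in droplets can give a UMI to a cell that does not express the gene, so cells with both GZMB (granzyme B) and CX3CR1, a receptor of cytotoxic effector cells, served as the background. There, 18 of 1239 cells (1.45%, 0.863 to 2.29%) held a CXCR5 UMI at a median depth of 3423 UMIs. The share was 10.3% (8.56 to 12.4%) among 1044 cells with CCR7 and LEF1 but no SOX4, 9.25% (6.18 to 13.2%) among 292 cells with EOMES and GZMK, and 13.3% (6.58 to 23.2%) among 75 cells with CXCL13. After thinning, these shares were 4.02% (2.90 to 5.41%), 3.94% (1.98 to 6.94%) and 2.90% (0.353 to 10.1%), and the background was 0.504% (0.185 to 1.09%), which the CXCL13 interval overlapped. CXCR5 was thus found above the background in resting-type cells with CCR7 and LEF1 and, at a like share, in cells with the T-box factor EOMES and granzyme K. Cells with CCR4, a receptor of Th2-type and skin-homing cells, were at a like share of 8.94% (5.20 to 14.1%), or 4.07% (1.65 to 8.21%) after thinning, also above the background. Cells with FOXP3 (6.83%), CCR6 (6.43%) and CXCR3 (3.98%, 2.91 to 5.30%) were above it as counted, with intervals that overlapped it after thinning. Among cells with GZMK and no EOMES 35 of 1129 cells held CXCR5 (2.17 to 4.29%), below the share in cells with both genes by intervals that do not overlap as counted and that overlap after thinning. Cells with SOX4, found in recent thymic emigrants, gave 2.52%, with an interval that overlapped the background. In 86 cells without CD3 and with 3 or more UMIs from 4 B cell genes, called B gene cells, the share was 54.7%. Cells with genes that the rule excludes, such as MS4A1 or CD79B, were not removed from the T cell sets. Of their CXCR5+ cells, 80 of 108 in the CCR7 and LEF1 set and 22 of 27 in the EOMES and GZMK set were among the 219. So were 10 of 16 in the CCR4 set, 14 of 36 in the CCR6 set, 31 of 44 in the CXCR3 set and 9 of 18 in the background set.

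**Figure D1:**
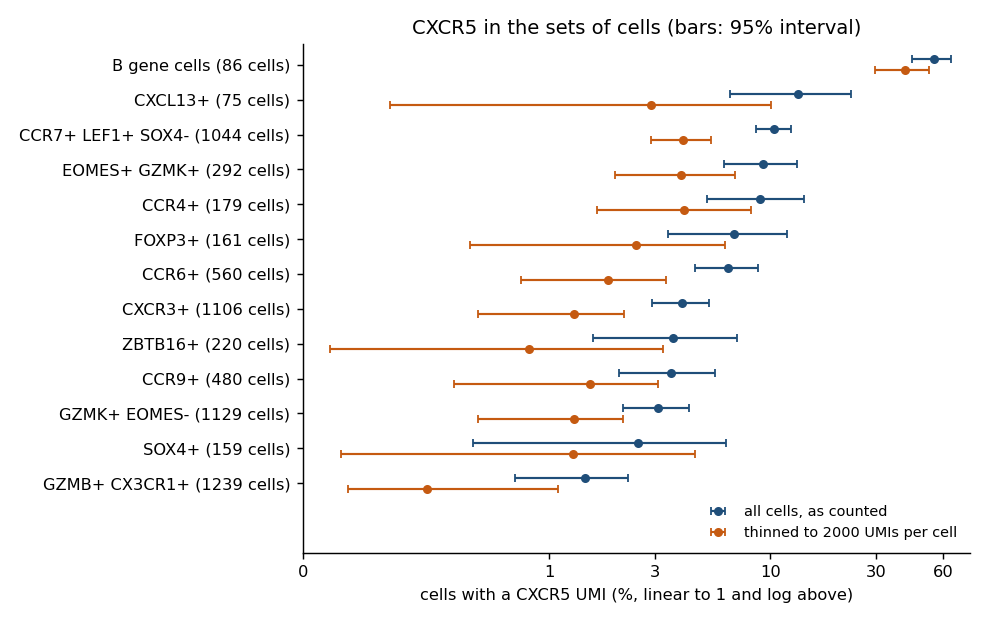
Share of cells with a CXCR5 UMI (%, horizontal axis, linear to 1 and logarithmic above) in 13 sets of cells defined by other genes, which share cells with each other, as counted (blue) and after thinning to 2000 UMIs (orange), with 95% exact binomial bars. T cell sets range from 1.45% in GZMB+ CX3CR1+ cells to 13.3% in CXCL13+ cells, and B gene cells stand at 54.7%.

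Against all CXCR5-negative T cells, the 219 cells were higher in CCR7, GPR183, CD7 and IL6R, and lower in most cytotoxic genes and in S100A4, with granzyme K as an exception. Of 5322 genes with enough counts, 11 (0.207%) were at least 2 times higher and 70 (1.32%) at least 2 times lower by the ratio of (CPM + 10), and the median log2 ratio over all these genes was -0.06. Of 12 listed naive T cell genes, 9 had enough counts and 3 of them, CCR7 and CD7 included, were past 2 times higher, with none lower and a median log2 ratio of 0.78 over all 12. Of 17 cytotoxic genes found, 15 had enough counts, 11 were past 2 times lower and 1, GZMK, was higher, with a median of -1.04 over the 17. Of 13 memory T cell genes found, 2 were past 2 times lower and none higher, with a median of -0.57. Of 24 listed homing and egress receptors, 17 had enough counts, 3 were past 2 times higher, CCR7 and GPR183 included, and 1, CX3CR1, was lower, with a median of 0.01 over the 24. Of 16 cytokines and cytokine receptors, 7 had enough counts and 1, IL6R, was past 2 times higher, with none lower and a median of 0.01 over the 16. Of the 15 listed Tfh transcription factors 8 had enough counts, and of the 15 receptors of B cell help 13, with none past the limit in either direction. With cells holding GZMK left out of both groups, 10 of 4679 genes (0.214%) were past 2 times higher and 99 (2.12%) lower, and 2 of 13 receptors of B cell help, PDCD1 and SH2D1A, were among the lower ones. Log2 ratios given for single genes are of CPM without the added 10.

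CCR7, the receptor for the lymph node chemokines CCL19 and CCL21 (chromosome 16, 51706765 to 51717446, minus strand), is a marker given with the name of these cells. Its UMIs were found in 150 of the 219 cells, with 1 UMI in 60 cells, at least 2 in 90 and at most 13. Its level was 327 CPM (295 to 363) against 136 CPM, a log2 ratio of 1.27 (1.11 to 1.42). At 2000 UMIs per cell, 38.7% (32.1 to 45.6%) of the CXCR5+ cells and 17.5% of the comparison cells held a CCR7 UMI (45.8% against 17.6% and 44.8% against 17.9% with 2 other seeds), as did 2.09% of GZMB+ CX3CR1+ cells. GPR183, an oxysterol receptor that places lymphocytes at the edge of follicles, was at 510.3 CPM against 230.2 CPM, a log2 ratio of 1.15 (1.02 to 1.27), and was found in 83.1% of the cells. S1PR1, the receptor used for egress from lymph nodes, was closer, at 304 CPM against 222 CPM.

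Receptors for other sites were measured on few UMIs. CXCR3, the receptor of Th1-type cells for inflamed tissue, gave 35.0 CPM against 45.3 CPM, with an interval of the log2 ratio that held 0 (-0.87 to 0.09). CCR6, a receptor of Th17-type cells, was at a log2 ratio of -0.68 (-1.42 to -0.02) and the gut-homing receptor CCR9 at -1.05 (-1.87 to -0.35), each on fewer than 20 UMIs. The CCR6 ratio was 0.20 in the 30 cells with at least 2 CXCR5 UMIs, so its direction was not fixed. CCR4 had 12 UMIs, at 10.8 CPM against 7.41 CPM, with an interval of the log2 ratio that held 0 (-0.44 to 1.37). Circulating Tfh cells are usually divided by these receptors. CXCR3 without CCR6 was counted in 28 cells (12.8%), CCR6 without CXCR3 in 11 (5.02%), both in 3 (1.37%) and neither in 177 (80.8%). The same shares in the comparison cells were 13.9, 6.36, 1.07 and 78.6%, and after thinning 92.0% of the CXCR5+ cells and 88.2% of the comparison cells held neither, so the division left most cells unassigned at this depth.

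Among the genes of B cell help, ICOS is the other marker given with the name. ICOS (chromosome 12, 91338310 to 91363482, plus strand), the costimulatory receptor that maintains Tfh cells, had 45 UMIs in 39 of the 219 cells. Its level was 40.4 CPM (29.4 to 54.0) against 27.5 CPM, a log2 ratio of 0.56 (0.09 to 0.99). The share of cells with ICOS depended on the random draw of UMIs in the thinning: it was 5.19% (2.62 to 9.09%) against 4.34% in the comparison cells with the first seed, 7.55% against 4.61% with the second and 8.96% against 4.94% with the third. Without thinning it was 17.8% against 9.44%, and with the first seed 2.85% of GZMB+ CX3CR1+ cells held ICOS. The CXCR5+ share was higher in each of these, by an amount the thinned counts did not fix. CCR7 was thus found in most of the cells and ICOS in few, and 30 cells held both genes, 129 held 1 of them and 60 neither.

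PDCD1, which encodes the inhibitory receptor PD-1 (chromosome 12, 129279134 to 129287069, minus strand), was lower. It was found in 50 cells (22.8%) at 64.6 CPM (50.5 to 81.3) against 134 CPM, a log2 ratio of -1.05 (-1.41 to -0.72), and ICOS and PDCD1 were found together in 7 cells. CD28, the main costimulatory receptor of T cells, was at 86.1 CPM against 51.4 CPM, a log2 ratio of 0.74 (0.43 to 1.04). CD40LG, which activates B cells through CD40, and TIGIT and SLAMF6, an inhibitory and a SLAM family receptor, had intervals that held 0. SLAMF1 and SH2D1A, whose product SAP passes on SLAM signals, were at log2 ratios of -0.97 and -0.93. The helper receptors therefore had no common direction.

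Of the 15 listed Tfh transcription factors, 8 had enough counts to compare, and LEF1 and TCF7, which are also naive T cell genes, had the highest ratios of them. MAF, a driver of IL-21, was at 15.2 CPM against 22.8 CPM (-1.37 to 0.11), TOX at -0.34 (-0.79 to 0.09) and STAT3, which carries the IL-6 signal, at 0.07 (-0.23 to 0.37). BCL6, with 2 UMIs, and TOX2, with 8, fell below the minimum. The TOX2 ratio of 0.38 became 2.18 in the 30 cells with at least 2 CXCR5 UMIs and -0.17 with a mitochondrial limit of 10%. LEF1 and TCF7, related factors of the Wnt pathway that act in naive and early helper T cells, were at 188 CPM against 104 CPM and 133 CPM against 81.2 CPM, with log2 ratios of 0.86 (0.65 to 1.06) and 0.71 (0.46 to 0.95). Of 7 factors listed as opposing the Tfh programme or driving effector cells, 3 were past 2 times lower, beside 1.32% of all genes with enough counts. These were TBX21 (T-bet) at a log2 ratio of -2.20, ZEB2 at -2.46 and HOPX at -1.90. ID2 and PRDM1 (Blimp-1) stood at -1.03 and -1.08 and KLF2, a quiescence factor, at 0.14, while EOMES was higher at 28.7 CPM against 16.3 CPM, 0.82 (0.25 to 1.33). With cells holding GZMK left out of both groups, EOMES was instead lower, at -1.74.

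The chains of the receptor for IL-6, a cytokine that promotes Tfh differentiation, were measured next, and IL6R was past 2 times higher while IL6ST was not. IL6R (chromosome 1, 96570516 to 96633105, minus strand) was at 84.3 CPM (68.1 to 103) against 32.6 CPM, a log2 ratio of 1.37 (1.05 to 1.68), and IL6ST (gp130) at 96.9 CPM against 47.5 CPM, 1.03 (0.73 to 1.31). SOCS3, a feedback inhibitor of that pathway, stood at 1.21. IL6R was held by 13.2% (8.96 to 18.5%) of the cells after thinning against 5.37% of the comparison cells. IL7R, the survival receptor of resting T cells, was level at 1186 CPM against 1161 CPM. IL4R, the receptor chain for IL-4, was lower at 56.5 CPM against 115 CPM, -1.02 (-1.41 to -0.67), and LTB (lymphotoxin beta) was at 1744 CPM against 929.5 CPM.

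Other genes with the largest ratios were REELD1 (56.5 CPM against 12.6 CPM, log2 ratio 2.17, 1.76 to 2.56), the kinase PLK2 (1.60), the deubiquitinase OTUD5 (1.24), DIP2C (1.30) and the AP-1 factor JUNB (0.95). CD7, a surface protein of naive T cells, was at 598 CPM against 274 CPM and PECAM1 (CD31) at 129 CPM against 69.9 CPM. REELD1 was found in 44 cells, and its ratio was 0.58 when CXCR5 had to reach 2 UMIs, which 30 cells did. At the lower end, S100A4, a calcium-binding protein abundant in memory T cells, was at 919 CPM against 3046 CPM, a log2 ratio of -1.73. GZMB was at 308 CPM against 1303 CPM (-2.08) and the chemokine CCL5 at 42.2 CPM against 299 CPM (-2.83). The GZMB ratio was -3.96 and that of CX3CR1 went from -2.65 to -4.45 without the cells of highest doublet score. SPINK2 and KLRD1 were at log2 ratios of -2.39 and -2.55. MAMU-DRA, of the MHC class II family, in which reads of near-identical members can be shared, was at -2.55, but at -1.59 when the comparison cells passed the same exclusions and at -1.53 when cells with the further B cell genes were left out of both groups. CD74 likewise went from -0.84 to -0.47 and -0.41. Without cells holding GZMK the ratios were further from 0, at -3.31 for MAMU-DRA and -2.05 for CD74. HBB and HBA, the hemoglobin genes, ranked lowest, yet 1 comparison cell held nearly all HBB UMIs.

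**Figure D2:**
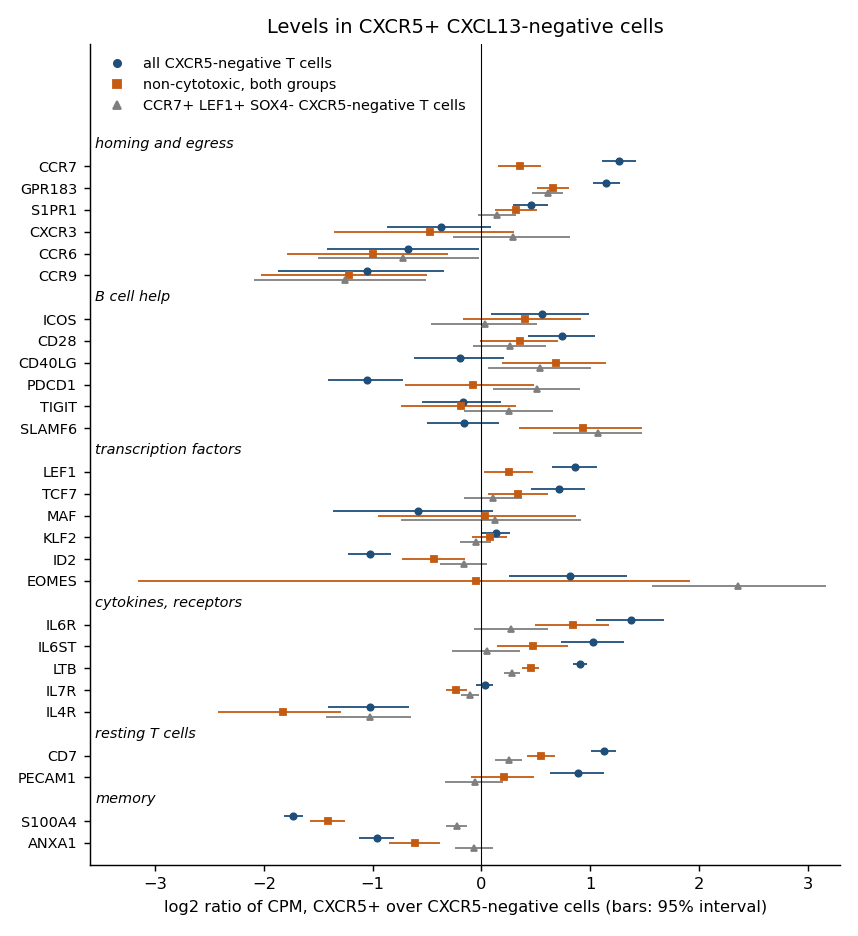
Log2 ratio of CPM in CXCR5+ CXCL13-negative cells over 3 comparison groups (horizontal axis; blue circles, all CXCR5-negative T cells; orange squares, both groups without cytotoxic cells; grey triangles, CCR7+ LEF1+ SOX4-negative CXCR5-negative T cells) with 95% counting intervals, by role of the gene. CCR7 goes from 1.27 to 0.35 and PDCD1 from -1.05 to -0.08 when cytotoxic cells are left out, and IL4R stays at or below -1.02 in each. CCR7 and LEF1 have no triangle because they define that group.

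Many of the isolated cells held cytotoxic transcripts, so both groups were next limited to cells with at most 1 UMI summed over GZMB, NKG7, CCL5 and GNLY. The resting profile was then much closer. This left 150 CXCR5+ cells and 2782 CXCR5-negative cells, and of 3784 genes 5 (0.132%) were past 2 times higher and 20 (0.529%) past 2 times lower. CCR7 was at 318 CPM against 249 CPM, a log2 ratio of 0.35 (0.15 to 0.54), LEF1 at 0.25 and TCF7 at 0.34, and none of the 9 naive genes with enough counts was past 2 times. Of the 7 factors listed as opposing the Tfh programme, 3 had enough counts and 1 was past 2 times lower. The difference in PDCD1 was no longer detectable, at 36.5 CPM against 38.7 CPM (-0.70 to 0.48), and that in ICOS had an interval of -0.17 to 0.92. IL6R at 0.84 (0.49 to 1.18), GPR183 at 0.66, JUNB at 0.82, PLK2 at 1.19 and REELD1 at 1.72 were still higher. CD40LG at 0.68 (0.19 to 1.14) and SLAMF6 at 0.94 were higher here and not against all cells. MT1E, a metallothionein, was at 1.04, with 17% of its UMIs in 1 cell.

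Among the lower genes of this comparison, IL4R was at 37.9 CPM against 134 CPM, a log2 ratio of -1.83, and S100A4 at 455 CPM against 1210 CPM (-1.41). KLRB1 (CD161), a receptor of innate-like and Th17-type cells, had 1 UMI in the 150 cells and 515 in the CXCR5-negative cells, a log2 ratio of -5.01 (-10.32 to -2.53). CD74 and MAMU-DRA were at -1.69 and -3.10, again beside cells in which B cell genes were not excluded, and HOPX and SPINK2 at -2.14 and -3.27. S100A4 and IL4R were therefore lower also among non-cytotoxic cells. KLRB1 was less far apart over all cells, at 55.6 CPM against 161 CPM (-1.53, -1.92 to -1.17), and among the CXCR5+ cells it lay mainly in those with GZMK (36 of 62 UMIs).

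The cells were then set against the 936 T cells with CCR7 and LEF1, no SOX4 and no CXCR5. Here the naive genes other than those used to choose the group were close. TCF7 was at a log2 ratio of 0.11 (-0.16 to 0.37) and CD7 at 0.25 (0.13 to 0.38), and none of 7 with enough counts was past 2 times. ICOS was at 0.04 (-0.47 to 0.51) and PDCD1 at 0.51 (0.10 to 0.90). Of 16 cytokines and cytokine receptors, 8 had enough counts, IL6R included. None was past 2 times in either direction, with a median of -0.03 over the 8. Of 5123 genes, 10 (0.195%) were past 2 times higher and 8 (0.156%) past 2 times lower. Of 17 cytotoxic genes found, 10 had enough counts and 4 were past 2 times higher, with none lower and a median of 0.30 over the 17, against 0.06 over all genes with enough counts. These 4 were GZMK at 568 CPM against 61.1 CPM (3.22, 3.01 to 3.42), NKG7 at 425 CPM against 166 CPM (1.36, 1.19 to 1.53), GZMM at 82.5 CPM against 29.9 CPM (1.47) and CST7 at 243 CPM against 101 CPM (1.26). EOMES was at 28.7 CPM against 5.59 CPM. Of the 7 factors listed as opposing the Tfh programme, 5 had enough counts and 1 was past 2 times higher, with none lower. GPR183 was again higher (0.61, 0.47 to 0.75), as were SLAMF6 (1.07) and the DNA repair enzyme UNG (2.26, on 23 and 20 UMIs). IL4R was lower at -1.03 (-1.43 to -0.65), as were CCR9 (-1.25), THY1 (-1.10) and MAMU-DRA (-2.58), the last beside cells in which B cell genes were not excluded.

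The granzyme K signal came from a minority of cells. GZMK (chromosome 6, 53329124 to 53338866, plus strand), a granzyme of early effector and memory cells, had 633 UMIs in the 219 cells, all of them in 47 cells (21.5%), of which 44 held at least 2 and the highest 29. In the comparison cells 19.3% held GZMK, at 245 CPM against 568 CPM. After thinning to 2000 UMIs the shares were 21.7% (16.3 to 27.9%) and 15.5%, and 4.38% in the CCR7 and LEF1 group. At 1000 UMIs they were 21.1% (15.9 to 27.1%) and 12.2%, and at 3000 UMIs 18.7% (13.5 to 24.8%) and 17.1% (16.1 to 18.1%), so a difference in the share of cells was not detectable at the last depth. Because of this division, which was made after the values were seen, the 47 cells with GZMK and the 172 without were described apart, and the values that follow are descriptive.

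EOMES (chromosome 2, 20018480 to 20025222, plus strand) had 31 UMIs in the cells with GZMK (155 CPM) and 1 UMI in those without (1.09 CPM), a log2 ratio of 7.15 (4.56 to 12.49), and 22 cells held both genes. NKG7 was at 1628 CPM against 162 CPM, CST7 at 949 CPM against 88.6 CPM, GZMM at 359.5 CPM against 21.9 CPM, PRF1 (perforin) at 129.8 CPM against 23.0 CPM and CD74 at 1328 CPM against 132 CPM. PDCD1 was at 155 CPM (105 to 219.7) against 44.8 CPM (32.2 to 60.8), TIGIT at 145 CPM against 41.5 CPM and SLAMF6 at 185 CPM against 44.8 CPM. These receptors were thus higher in the cells with GZMK, beside the cytotoxic genes. In the other direction LEF1 was at 49.9 CPM against 219 CPM (-2.13), JUNB at 339.5 CPM against 1181 CPM, CD7 at 279.6 CPM against 668 CPM (-1.26) and IL6R had 3 UMIs against 91, a log2 ratio of -2.73 (-5.04 to -1.14). REELD1 had 63 UMIs in the cells without GZMK and 0 in those with it, a log2 ratio of -2.20 or lower if 0 is taken as 3 UMIs. CCR7 was higher with GZMK, unlike LEF1 and CD7, at 459 CPM (370.3 to 563) against 298 CPM, a log2 ratio of 0.62 (0.27 to 0.97), and was found in 63.8% of the cells with GZMK and 69.8% of those without. IL7R (-0.14, -0.36 to 0.07) had an interval that held 0, and ICOS, on 6 UMIs in the cells with GZMK, could not be told apart.

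**Figure D3:**
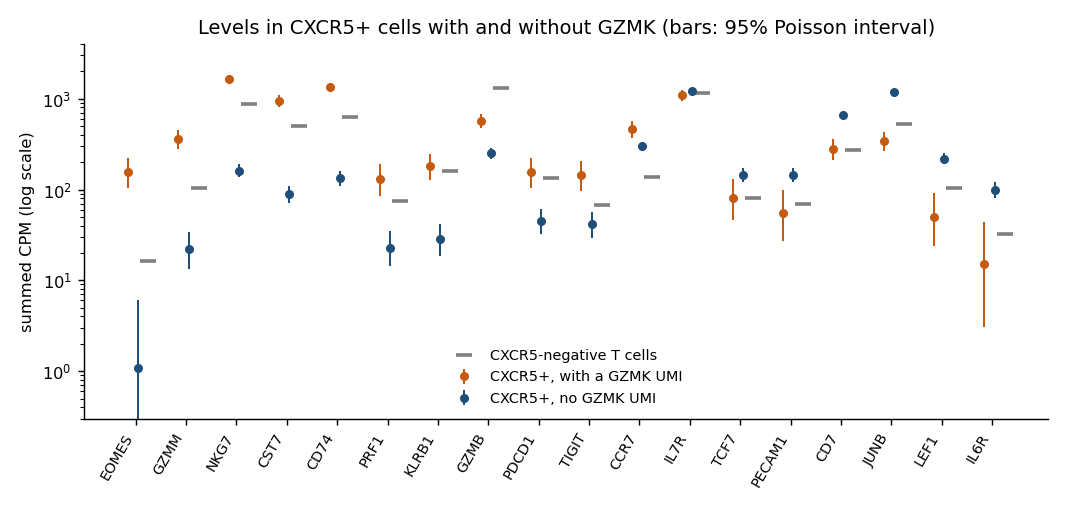
Summed CPM (vertical axis, log scale) of 18 genes in the 47 CXCR5+ cells with a GZMK UMI (orange) and the 172 without (blue), with 95% Poisson bars, and in all CXCR5-negative T cells (grey marks). EOMES stands at 155 and 1.09 CPM, LEF1 at 49.9 and 219 CPM, and CCR7 at 459 and 298 CPM, in both above the comparison cells.

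CCR7 was also compared between cells of the EOMES and GZMK type with and without CXCR5. The 22 CXCR5+ cells held CCR7 at 433 CPM (308 to 591) and the 265 CXCR5-negative cells at 207 CPM, a log2 ratio of 1.06 (0.53 to 1.56). SLAMF6 was at 1.07 (0.32 to 1.75), GZMB at -1.07 and S100A4 at -1.01. Among cells without GZMK, the 172 CXCR5+ cells and their 875 CCR7+ LEF1+ counterparts were close, though only the latter were chosen on CCR7 and LEF1. UNG (2.53, on 20 and 16 UMIs), REELD1 (1.21, 0.75 to 1.66), CD40LG (0.85, 0.36 to 1.33) and GPR183 (0.63) were higher, IL4R (-1.21, -1.69 to -0.77) and CD74 (-1.28) were lower, and ICOS (0.11) and PDCD1 (0.11) had intervals that held 0. The CD74 value again stood beside cells in which B cell genes were not excluded.

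The 219 cells were also divided by CXCR5 and by CCR7 UMIs. Between the 30 cells with at least 2 CXCR5 UMIs and the 189 with 1, CCR7 was at 388 CPM against 317 CPM (0.29, -0.13 to 0.69), and ICOS, PDCD1 and GZMK had intervals that held 0. Between the 150 cells with CCR7 and the 69 without, LEF1 (0.23, -0.22 to 0.69), ICOS and PDCD1 likewise had intervals that held 0, GZMK was at 516 CPM against 683 CPM and GZMB at 315 CPM against 290.5 CPM. GZMB UMIs were found in 39 of the 219 cells (17.8%) and in 7 of the 86 B gene cells (8.14%, 3.34 to 16.1%), which should lack the gene, at median depths of 4642 and 4137.5 UMIs and with exact intervals that overlapped. No share of cells expressing GZMB is drawn from these UMIs.

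The cells were also set beside T cells with CXCL13 and T cells with FOXP3, genes that the rule excludes. Only 10 of the 75 cells with CXCL13 and 11 of the 161 with FOXP3 held a CXCR5 UMI, so most of these cells would not have been chosen in any case. Against the 75 cells with CXCL13, the 219 cells had PDCD1 at 64.6 CPM against 271 CPM, a log2 ratio of -2.07 (-2.54 to -1.60), TIGIT at -2.01, CD200 at -2.97, TOX2 at -3.08, MAF at -1.55 and CTLA4 at -1.74. ICOS was at 40.4 CPM against 70.1 CPM (-1.56 to 0.01). GZMK was at 4 UMIs in the CXCL13 cells, while CCR7 had an interval that held 0 (-0.01 to 0.71). PD-1, TIGIT, CD200, TOX2, MAF and CTLA4 transcripts were therefore higher in the cells with CXCL13. Against the 161 cells with FOXP3, the factor of regulatory T cells, IL2RA (CD25) was at 7.18 CPM against 109 CPM (-3.92), CTLA4 at -1.59 and TIGIT at -1.18. CCR7 (-0.10, -0.33 to 0.13) and ICOS (-0.03, -0.71 to 0.66) were not distinguishable, IL7R (1.35) and TCF7 (1.21) were higher, and EOMES was at 0 UMIs in the FOXP3 cells.

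The surface tags were not used to choose the cells. CD4 transcript was level at 172 CPM against 177 CPM, and CD8A was at 203 CPM against 172 CPM, a log2 ratio of 0.24 (0.04 to 0.43), whereas CD8B had 3 UMIs in the 219 cells, a log2 ratio of -2.62 (-4.91 to -1.07). The 30 cells with at least 2 CXCR5 UMIs held 0 CD8B UMIs, which gave no direction at their depth. The CD4 tag ranged from 131 to 33344 UMIs per cell with a median of 453, against 381 in the comparison cells. The CD8 tag ranged from 48 to 2928 with a median of 498, against 334. With the background set at the 90th percentile of B gene cells (191 UMIs for CD4 and 330.5 for CD8), 99.1% of the CXCR5+ cells were above it for CD4, and 69.4% (62.8 to 75.4%) for CD8. In the comparison cells these were 93.3% and 50.5%, and the latter was 58.7% when the cells were weighted to the same depth. Both tags were above the background in 69.4% of the CXCR5+ cells (152 cells) and 47.9% of the comparison cells, so the other CXCR5+ cells were not DP by this limit.

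**Figure D4:**
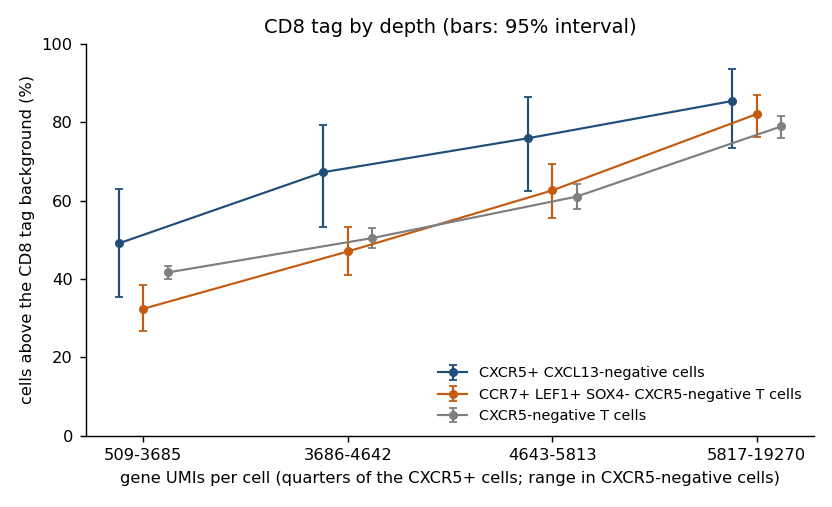
Share of cells above the background of the CD8 tag (%, vertical axis from 0 to 100) in 4 bins of gene UMIs per cell (horizontal axis), for CXCR5+ CXCL13-negative cells (blue), CCR7+ LEF1+ SOX4-negative CXCR5-negative T cells (orange) and all CXCR5-negative T cells (grey), with 95% exact binomial bars. The CXCR5+ cells go from 49.1% to 85.5% and lie above both groups in every bin, with bars that overlap in most of them.

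The CD8 tag moved with depth, and the comparison was repeated within 4 bins of depth that held equal numbers of CXCR5+ cells, within 1 cell. From the shallowest to the deepest bin, 49.1, 67.3, 75.9 and 85.5% of the CXCR5+ cells were above the background, against 41.7, 50.5, 61.1 and 79.0% of the comparison cells and 32.4, 47.0, 62.6 and 82.1% of the CCR7+ LEF1+ cells. Against all comparison cells, the intervals did not overlap in the second bin (53.3 to 79.3% and 48.0 to 52.9%) and overlapped in the other 3. The cells with GZMK had fewer CD8 tags: their median tag count was 276 UMIs and 42.6% (28.3 to 57.8%) were above the background, against 542.5 UMIs and 76.7% (69.7 to 82.8%) of those without, at median depths of 3883 and 4837 UMIs. Weighted to the same depth the shares were 48.5% and 75.4%. By bin, from the shallowest, the median tag count was 232, 168, 383 and 626 UMIs with GZMK against 361, 631.5, 498 and 708 without, and the share above the background was higher with GZMK in the third bin, on 5 cells with GZMK, and lower in the other 3. The tag followed its transcript within the CXCR5+ cells, with 86.2% above the background among the 123 cells holding a CD8A UMI and 47.9% among the 96 without. CCR7 made no such difference, with 70.0% among cells holding it and 68.1% among the rest.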

How the data were processed

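Both libraries were deposited by the authors in the same matrix of raw UMI counts per barcode (35432 genes and 2 antibody tags). Per the submitters' processing notes, Cell Ranger 3.1.0, STAR 2.5.1b and Seurat 3.1.3 were used with Mmul_10. Kept cells had 200 to 4000 detected genes, and their mitochondrial share (13 named genes and 2 features without a symbol) did not pass 20%. No doublet was removed. UMIs were summed per group and divided by all gene UMIs. CPM has exact Poisson intervals, shares have Clopper-Pearson intervals, and log2 ratios have exact intervals from the binomial split of the 2 counts, all at 95%. No test was made, since there was 1 animal. Genes were counted as past 2 times by (CPM + 10), given at least 20 UMIs in the CXCR5+ cells or as many expected from the comparison level. The genes that chose a group were left out. The text names listed genes, genes named by the study and the 15 largest ratios each way, leaving out receptor segments and symbols given to more than 1 feature. The members and lists were chosen with earlier results of these data known, and genes named from the GZMK division after its values were seen. Positions come from the RefSeq annotation of Mmul_10. Python 3.11.15, numpy 2.4.6, scipy 1.17.1, pandas 2.3.3 and scanpy 1.11.5 (Scrublet) were used, and the ratio script was tested on simulated counts.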

Additional observations from a re-analysis of the deposited data

How the results depend on the processing

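Of 42 genes, 36 had the sign of the reported log2 ratio under each of the 13 alternatives of cells and weighting that gave a value, and 70 of 544 values lay outside the reported interval. The CXCR5 minimum of 2 UMIs moved most. It left 30 cells, 14 genes lower against all CXCR5-negative cells, and 12 higher and 4 lower against the non-cytotoxic ones, and it left 0 CD8B UMIs, which gave no value, reversed CCR6 (0.20) and KLF2 (-0.17), turned CTLA4 from 0.49 to -0.12, and raised TOX2 from 0.38 to 2.18, EOMES to 1.62 and LEF1 to 1.37. Leaving out cells with GZMK in both groups, an alternative chosen after seeing the data as were 2 more thinning seeds and leaving out the cell richest in HBB, reversed EOMES (-1.74) and gave CD8 tag shares of 76.7% and 51.9%. The number of genes past 2 times depended on the limit: 37 were higher and 143 lower with 1 CPM added, 3 and 12 with 50 CPM added, and 17 and 106 with the mean over cells, while depth weighting gave 44 lower. A mitochondrial limit of 10% gave 2 genes higher among non-cytotoxic cells and turned TOX2 to -0.17. CCR7 stayed between 1.04 and 1.51, IL6R between 1.32 and 1.53, GZMK between 1.15 and 1.67 and PDCD1 between -1.42 and -0.73. The limit to non-cytotoxic cells was not among these alternatives of gene ratios. Under that limit, as given above, CCR7 and IL6R were below these ranges and the difference in PDCD1 was not detectable. The CD8 tag share of CXCR5+ and comparison cells was 58.0% and 37.4% at the 95th percentile, and that of the comparison cells was 51.9% with named mitochondrial genes alone and 58.7% with depth weighting. The CCR7 share was 28.9% and 11.5% at 1000 UMIs, 53.0% and 24.7% at 3000, 68.5% and 27.7% without thinning, and 45.8% in CXCR5+ cells with another seed. CXCR3 without CCR6 was 5.19% after thinning. The cause of these changes was not tested. BCL6 and TOX2 had fewer than 20 UMIs, observed or expected, and ICOS had 45. No paired analysis was possible because there was 1 animal.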
